A study of Mus musculus with 12 samples.

Results

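Of the 51884 transcripts quantified in mouse liver and heart, 74 were abundant in both organs and took a similar share of the reads in each. A transcript belonged to this set when it was under 12000 nt long, when it averaged at least 200 CPM (estimated counts of a transcript per 1000000 counts of its library) over the 6 livers and over the 6 hearts, and when these means differed by no more than 1.5 times. Control and treated animals were averaged together for this choice. The level in each organ and the contrast between the organs therefore selected the members and are given as descriptions, with no test.

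The libraries came from 6 Swiss Webster mice aged 6 to 8 weeks, each of which gave a liver and a heart, so that there were 3 control livers, 3 treated livers, 3 control hearts and 3 treated hearts. Treated animals received 200 mg/kg of a Lats kinase inhibitor, labelled LKI-2, by intraperitoneal injection, and the organs were taken after 4 h. The labels list no agent for the control animals, although the series description words the injection as given to each mouse. The study describes an injection of the vehicle, Kolliphor HS 15, for its control animals. No genotype is given in the labels, and the tissue of each library is labelled as a homogenate of the organ. Because these were bulk samples, fewer cells of a type and less RNA per cell cannot be told apart in any value below.

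In every tissue some transcripts serve tasks that most cells share, such as protein synthesis, energy supply and the cytoskeleton, and such transcripts are often abundant everywhere. Lats kinases belong to the Hippo pathway: they phosphorylate the coactivator Yap, which keeps it out of the nucleus, and their inhibition lets Yap act on its target genes. The members are known here only by their UCSC transcript identifiers, which no table used here pairs with genes. Their functions, pathways and sequences are therefore not given, and neither organ label was checked against cell type markers.

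A total of 154 transcripts under 12000 nt averaged at least 200 CPM in both organs. The members were 74 of them, and of the other 80, 61 were over 1.5 times higher in heart and 19 over 1.5 times higher in liver. The members also made up 13.5% of the 547 transcripts that reached this level in liver, and 9.66% of the 766 that reached it in heart. They took 3.005% ± 0.0484 of the reads in control livers, 2.87% ± 0.130 in treated livers, 3.13% ± 0.0509 in control hearts and 3.19% ± 0.0677 in treated hearts (SD, n = 3 each). The members formed about the same small part of the reads in all 4 groups, between 2.72% and 3.25% in any library. The rule itself limited how far this part could differ between the organs. Libraries held between 24575658 and 31243782 estimated counts in liver and between 12618288 and 20533986 in heart. Each member had between 1935 and 64788 counts in each library, and replicates of a group differed by more than counting error (chi-square over the members from 2254 to 26657 on 73 degrees of freedom).

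**Figure D1:**
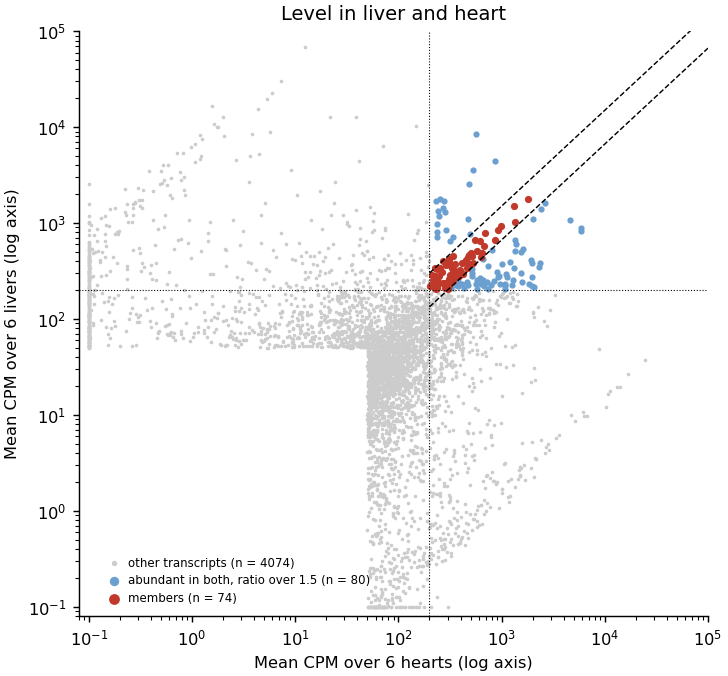
Mean CPM over 6 hearts (horizontal, log axis) against mean CPM over 6 livers (vertical, log axis) for each transcript that averaged at least 50 CPM in either organ, with means under 0.1 CPM drawn at 0.1. Dotted lines mark 200 CPM and dashed lines a ratio of 1.5 in either direction; the 74 members lie between the dashed lines, and most transcripts that are high in one organ lie far from them.

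An equal share of reads was not an equal level relative to most transcripts. Over the 26434 transcripts tested in the 12 libraries together, the median liver-to-heart ratio of CPM was 0.504. The TMM method, which scales libraries to their bulk of transcripts, gave factors of 0.598 to 0.795 to the livers and 1.353 to 1.496 to the hearts, and brought that median to 1.01. On this scale the members were between 1.33 and 3.02 times higher in liver, with a median of 1.84. Only 10 of the 74 were then within 1.5 times, and the other 64 were higher in liver. The same rule applied to TMM-scaled CPM took 56 transcripts, of which 9 were members. Equality of these transcripts across the organs thus holds for the share of reads and not after this scaling.

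On the CPM scale the members ranged from 203 to 1769 in liver (median 313) and from 204 to 1808 in heart (median 336). Most lay near the lower limit: 58 were under 500 CPM in both organs, and 3 were over 1000 CPM in both (uc009sgd.1, uc008ifd.2 and uc007gge.2). Of the 3, uc009sgd.1 (3881 nt) was the highest in reads. It stood at 1884, 2140 and 1515 CPM in control livers, 1515, 1652 and 1906 in treated livers, 2132, 1961 and 1630 in control hearts and 1594, 1894 and 1637 in treated hearts. All 4 groups overlapped in this transcript, and its liver-to-heart ratio was 0.978.

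The liver-to-heart ratio of the means was over 1 in 24 members and under 1 in 50, with a median of 0.905. It was within 1.1 in 21 members. Next to the limits of the rule, uc009tod.2 was inside with a ratio of 1.498 and uc007gqi.1 outside with 1.549, while on the heart side uc033frg.1 was inside with 0.669 and uc009ank.2 outside with 0.659. In level, uc033frg.1 was inside with 203 CPM in liver and uc009tym.3 outside with 199, and uc008vhr.1 was inside with 204 CPM in heart and uc012gzt.1 outside with 197. The longest member, uc009ayk.2, had 6082 nt, and no transcript of 12000 nt or more met the other conditions (0 transcripts).

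A ratio of pooled means near 1 did not require a ratio near 1 in each condition. Among control animals alone 62 members were within 1.5 times (5 were higher in liver and 7 in heart), and among treated animals alone 65 were (2 were higher in liver and 7 in heart). Both held for 53 members, 12 were outside in the controls only and 9 in the treated animals only. Of the 5 members whose pooled ratio was nearest to 1, uc033gtg.1 had a ratio of 1.02 that averaged 0.402 in controls and 1.34 in treated animals. The other 4 (uc009sgd.1, uc007ipa.1, uc007upt.1 and uc007jst.2) had ratios between 0.860 and 1.11 in either condition.

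Single animals differed from each other in this count. The number of members within 1.5 times was 66, 62 and 60 in control mice 1 to 3, and 60, 48 and 56 in treated mice 1 to 3. In treated mouse 2, 24 members were over 1.5 times higher in heart and 2 in liver. Only 20 of the 74 members were within 1.5 times in each of the 6 mice.

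The steadiest members changed by less than 1.5 times over the 12 libraries. The highest CPM divided by the lowest was 1.35 in uc009kxa.2, 1.36 in uc009sxs.2 and 1.41 in uc009qbn.1, which were picked out after their values were seen. In uc009sxs.2 (1295 nt) the CPM was 281, 300.2 and 288 in control livers, 288, 274 and 294 in treated livers, 354, 335 and 324 in control hearts and 308, 326 and 372 in treated hearts. Every heart of uc009sxs.2 was above every liver, although the means differed by a ratio of 0.854. Over all members this span had a median of 1.89, with 45 members under 2-fold and 7 under 1.5-fold, and its maximum was 7.94 in uc033gtg.1. The span crosses both organs, and the rule itself limited the ratio between them. Within liver alone its median was 1.57 over members and 1.54 over the other transcripts abundant in both organs. Within heart the medians were 1.43 and 1.31, and 87.8% of members and 97.5% of the others were under 2-fold.

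Within a group of 3 animals the median spread was larger over the members than over the other transcripts abundant in both organs, in each of the 4 groups. The median coefficient of variation (CV, the SD as a percentage of the mean) over members was 11.0% in control livers, 14.0% in treated livers, 4.59% in control hearts and 13.4% in treated hearts. Over the 80 other abundant transcripts the medians were 8.03%, 9.66%, 4.24% and 11.2%. Without treated heart 3, the library with the fewest counts, the median of treated hearts was 4.39% over members and 3.22% over the others. The lowest mean CV over the 4 groups was 3.16% in uc009rhg.1, followed by 5.08% in uc009qbn.1 and 5.31% in uc009sxs.2. The highest were 21.7% in uc008uic.1, 21.5% in uc007iem.2 and 20.7% in uc007ups.1. In uc007iem.2 the spread came from the hearts, with 731, 652 and 1258 CPM in controls and 610, 836 and 1068 in treated animals, while the 6 livers stayed between 565 and 724.

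**Figure D2:**
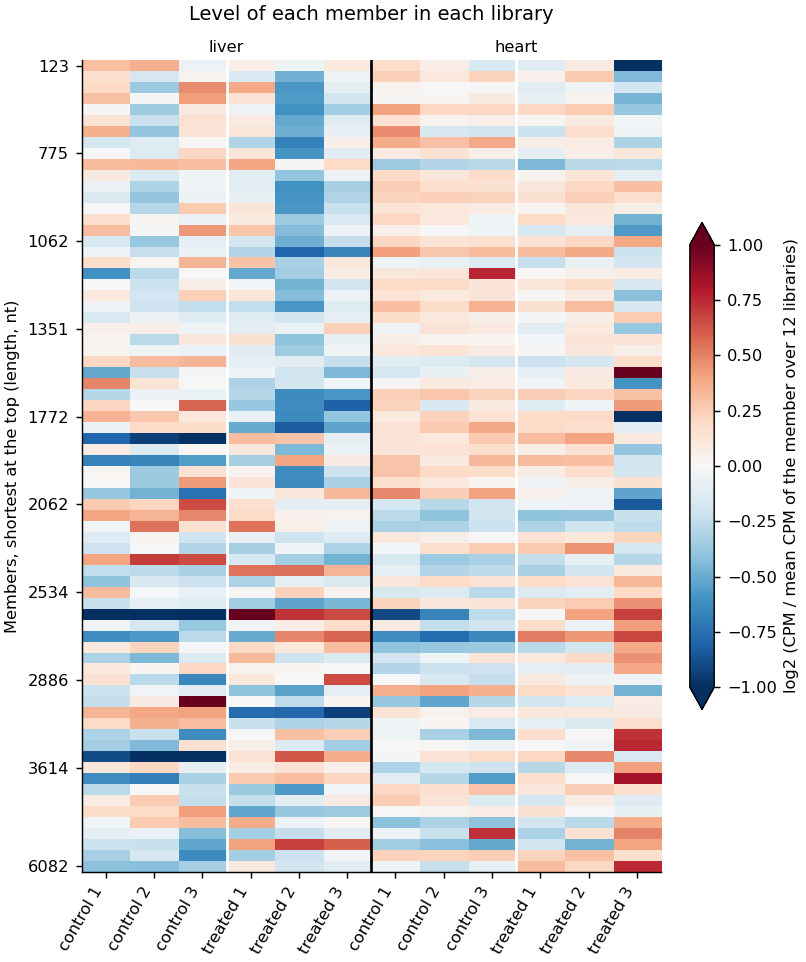
Each row is one of the 74 members, with the shortest at the top and lengths in nt at the left; each column is a library, and the colour is log2 of its CPM over the member's mean of 12 libraries, cut at -1 and 1. Treated liver 2 is blue over most short members, treated heart 3 is blue or red over many members where the other hearts are pale, and a few long members differ between control and treated livers.

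The heat map of levels by library shows departures that run with transcript length. Members were 123 to 6082 nt long (median 1875), and 28 were under 1500 nt. In treated liver 2, 27 of these 28 were below the mean of the other treated livers, and over all 74 members the Spearman correlation between length and the deviation from the other libraries of the group was 0.61. Other livers departed less or the other way, with 0.48 in control liver 2 and -0.49 in treated liver 1. In hearts the correlation was 0.46 in treated heart 3 and -0.50 in treated heart 2. The 80 other abundant transcripts gave 0.54 in treated liver 2, 0.29 in control liver 2, -0.41 in treated liver 1, 0.30 in treated heart 3 and -0.36 in treated heart 2, so the pattern was not limited to the members. These are correlations across transcripts of 1 library, which share its RNA and its reads.

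Treated heart 3 also put the members in another order. Between the other libraries of a group, the Spearman correlation of CPM over the 74 members was 0.85 to 0.97. Treated heart 3 reached 0.69 with treated heart 1 and 0.65 with treated heart 2. Its total of 12618288 counts was the lowest of the 12. Control livers against control hearts gave 0.61 to 0.74, and control livers against treated livers 0.45 to 0.69.

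CPM grows with transcript length, and the members were therefore also ranked by a level per length, in which the count is divided by the effective length and scaled to 1000000 over all transcripts. One member dominated this scale. The shortest, uc033jng.1 (123 nt), has an effective length of 5.13 nt in the files and held between 5.57% and 15.7% of the whole per-length level, rank 1 in every library, from 0.0230% to 0.0774% of the reads. Its CPM was 748, 774 and 582 in control livers, 633, 586 and 649 in treated livers, 687, 635 and 545 in control hearts, and 561, 644 and 230 in treated hearts. Treated heart 3 stood apart from the other 11 libraries, and the group means otherwise lay close together. The per-length value of uc033jng.1 rests on its short effective length, whereas for the other 73 members the effective length was the length less 249 nt.

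The next members by per-length level, averaged over the 12 libraries, were uc008ifd.2 at 1181, uc009pzt.1 at 1033 and uc007epx.2 at 916 per 1000000. They were followed by uc008iwf.1 at 687, uc007lfk.2 at 679, uc008zrj.2 at 671 and uc008axy.2 at 641. All were shorter than the median member, with lengths from 468 nt in uc009pzt.1 to 1474 nt in uc008ifd.2. The highest of these in reads, uc008ifd.2, had 1636, 1773 and 1798 CPM in control livers, 1340, 1322 and 1212 in treated livers, 1316, 1294 and 1253 in control hearts and 1227, 1267 and 1612 in treated hearts. Each treated liver was below each control liver on this scale, but with TMM scaling the log2 fold change of uc008ifd.2 in liver was -0.12 ± 0.11 (SE; edgeR adjusted p = 0.598).

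Whole estimated counts in all libraries were found in 26 members (35.1%). Among the 80 other abundant transcripts 36 had them, and among the 16986 transcripts with reads in every library the share was 17.3%. A fractional count marks reads that were divided between transcripts, so the level of the other 48 members depends on that division.

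Both members of a pair with consecutive identifiers, chosen after their values were seen, had fractional counts. In uc007ups.1 (1588 nt) treated hearts had 322, 363 and 684 CPM, and in uc007upt.1 (1772 nt) they had 561, 564 and 224. Treated heart 3 was thus the highest of the 3 for the first and the lowest for the second. The CV in treated hearts was 43.5% and 43.4% for the transcripts taken singly, but 2.42% for their sum, which was 883, 927 and 909 CPM. In control livers the sum was also steadier, with a CV of 1.12% against 17.0% and 8.41%. In control hearts it was not, with a CV of 4.79% against 8.52% in uc007ups.1 and 4.69% in uc007upt.1. In treated livers the sum varied as the parts did, at 799, 615 and 627 CPM (CV 15.1%).

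**Figure D3:**
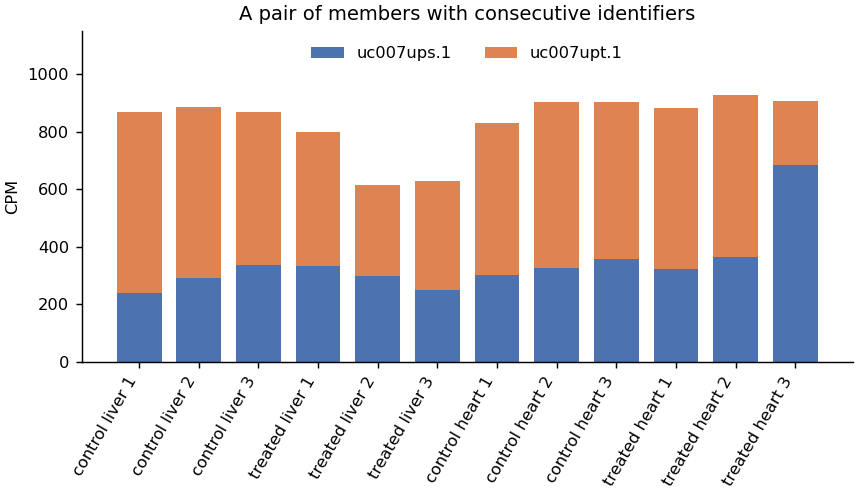
CPM of uc007ups.1 (blue) and uc007upt.1 (orange) stacked for each of the 12 libraries. The stacked height of treated heart 3 (909 CPM) lies between those of the other treated hearts (883 and 927 CPM), while the split between the members is turned around.

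Whether treatment changed the members was tested in each organ with edgeR's quasi-likelihood test on all transcripts that passed a filter on low counts, scaled by TMM, with p-values adjusted over all of them by Benjamini-Hochberg. All 74 members passed the filter. The pooled levels that chose the members held both conditions, and a transcript could reach 200 CPM through one condition alone: 59 members were at 200 CPM in each of the 4 groups, 5 were below it in control livers, 8 in treated livers, 2 in control hearts and 2 in treated hearts. Counts of calls over the members are thus a description of this set.

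In liver 12 members were higher after treatment (16.2% of the members), where 6.09% of all transcripts tested were, and 1 was lower (1.35%), where 3.37% of all were. The 12 had log2 fold changes from 0.40 to 3.01. Among the other 80 abundant transcripts 9 were higher and 4 lower. Of the 12, 4 were among the members under 200 CPM in a group, and 5 of the 12 were over 1.5 times lower in liver than in heart among the controls. A set chosen by the same rule on the 6 control libraries alone held 68 transcripts, of which 5 were higher in liver after treatment and 2 were lower. These were 7.35% and 2.94% of that set.

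The median log2 fold change in liver was 0.15 over the members, 0.06 over the other abundant transcripts and -0.02 over all transcripts tested, and 59 of the 74 members had a positive value. These directions depended on scaling. TMM factors were 1.096 to 1.125 in control livers and 0.853 to 0.950 in treated livers. With library totals alone the median of all transcripts moved to -0.32 and that of the members to -0.14, and the calls became 7 higher, against 3.77% of all transcripts, and 7 lower, against 9.14%. In CPM itself each treated liver was above each control liver in 11 members, where this held for 10.2% of all transcripts, and below in 13, where it held for 30.4%.

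The largest change was in uc033gtg.1 (2761 nt). Control livers had 86.0, 85.3 and 96.4 CPM and treated livers 677, 548 and 524. Every treated liver was far above every control liver, and the log2 fold change was 3.01 ± 0.15 (SE; edgeR adjusted p = 0.00251). Control hearts had 178, 209 and 279 CPM and treated hearts 334, 439 and 535. Treated hearts were all above control hearts here too, with a log2 fold change of 1.01 ± 0.23 that missed the threshold (edgeR adjusted p = 0.174) but passed with DESeq2 (adjusted p = 0.000929). This transcript was below 200 CPM in every control liver and became a member through the treated ones.

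The second largest rise in liver was in uc008npr.1 (3549 nt), from 179, 151 and 130 CPM in controls to 368, 513 and 430 in treated animals. Its log2 fold change was 1.82 ± 0.20 (SE; edgeR adjusted p = 0.00793). This transcript too was below 200 CPM in every control liver and reached that mean through the treated ones. The value without control liver 2 was 1.79 ± 0.26 and missed the threshold (edgeR adjusted p = 0.0511). Hearts stayed between 299 and 465 CPM in both groups, which overlapped.

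A single member fell in liver. In uc009rhg.1 (3348 nt) control livers had 319, 330.4 and 333 CPM and treated livers 148, 147 and 132, so the groups were far apart. The log2 fold change was -0.90 ± 0.10 (SE; edgeR adjusted p = 0.00887). Treated livers were below 200 CPM, and the transcript reached that mean over the 6 livers through the control ones. The 6 hearts lay between 260.2 and 278 CPM, and the CV of the treated hearts was 0.837%. The member with the lowest mean CV within groups was therefore also the one that fell in liver.

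The calls in liver had lengths from 1816 to 6082 nt, and none of the 28 members under 1500 nt was called higher or lower (0 of 28). Over transcripts of all lengths 6.09% were higher and 3.37% lower, and the share among short transcripts was not computed. At such shares few calls would fall on 28 transcripts, so the 0 is not read as a trait of short members. The members under 1500 nt had log2 fold changes between -0.16 and 0.33 (median 0.12), and the 46 longer members between -0.90 and 3.01 (median 0.26). Over the 74 members the fold change in liver had a Spearman correlation of 0.36 with length, against 0.32 over the other abundant transcripts and 0.08 over all transcripts. Without treated liver 2, the library in which short members were low, the correlation was 0.22 over the members and 0.19 over the other abundant transcripts. Without treated liver 1 the values were 0.40 and 0.41, and without treated liver 3 they were 0.34 and 0.33. The part of length in these results was not tested.

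How many calls passed changed with the libraries used, over the members and over all transcripts. Leaving out a single liver left between 2 and 11 members higher: 2 without control liver 2, 6 without control liver 3, treated liver 2 or treated liver 3, 7 without control liver 1 and 11 without treated liver 1. All transcripts lost calls too, from 1256 higher of 20628 tested with all 6 livers. There were 353 of 21687 without control liver 2, 721 of 22346 without treated liver 1 and 509 to 600 in the other fits. The lower call of uc009rhg.1 passed in each of these fits. At an adjusted p of 0.01, 6 members were higher, against 1.5% of all transcripts, and 1 was lower, against 0.412%.

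**Figure D4:**
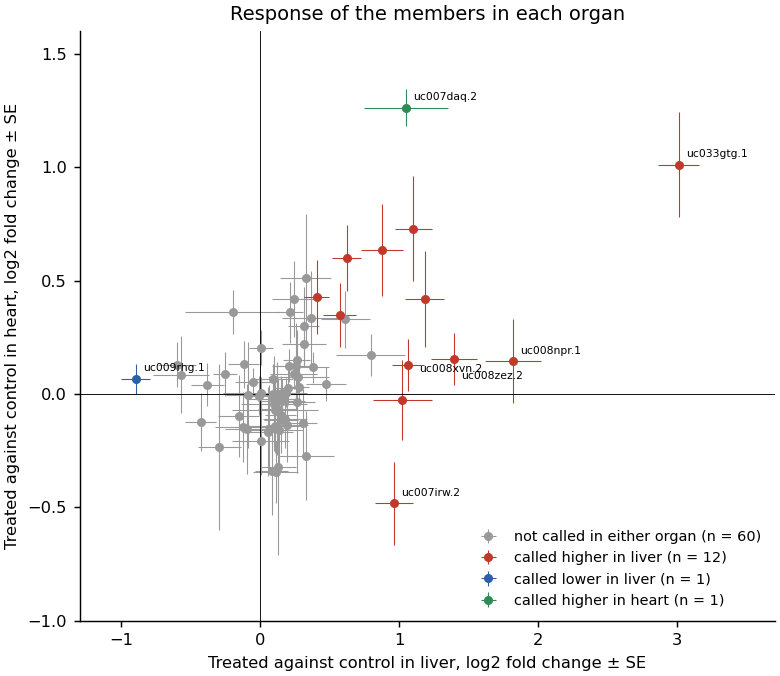
Log2 fold change of treated against control animals in liver (horizontal) and heart (vertical) for the 74 members, with bars of 1 SE in each direction; red marks the 12 called higher in liver, blue the 1 called lower in liver and green the 1 called higher in heart. Most members lie near 0 in both organs, and uc033gtg.1 stands at 3.01 in liver and 1.01 in heart.

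In heart 1 member was higher after treatment, where 0.404% of all transcripts were, and 0 were lower, where 0.0898% of all were. At an unadjusted p under 0.05 edgeR gave 12 members higher and 2 lower, against 6.12% and 4.66% of all transcripts. DESeq2 called 6 higher and 0 lower after adjustment, against 2.11% and 1.21% of the 37326 transcripts with a count in any heart. The edgeR and limma-voom shares are over the 22281 that passed the filter on low counts. With limma-voom the counts were 1 and 0, against 0.507% and 0.0987%. The median log2 fold change was 0.03 over the members and -0.03 over all transcripts, and 43 of 74 members had a positive value. Each treated heart was above each control heart in CPM in 9 members, against 8.49% of all transcripts, and below in 8, against 14.4%.

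The member called in heart was uc007daq.2 (2807 nt). Control hearts had 571, 516 and 562 CPM and treated hearts 1255, 1184 and 1395, with no overlap and little spread in either group. The log2 fold change was 1.26 ± 0.08 (SE; edgeR adjusted p = 0.0183). Without any 1 of the 3 control hearts or of treated hearts 1 and 2, it did not pass (edgeR adjusted p from 0.0627 to 0.171), while its fold change stayed between 1.21 and 1.31. In those fits no transcript passed at all (0 of 23614 to 23822 tested). In liver the controls had 570.1, 589 and 729 CPM and the treated animals 621, 1229 and 1312. Treated liver 1 lay within the range of the control livers and the other two far above it, and the log2 fold change of 1.05 ± 0.30 missed the threshold (edgeR adjusted p = 0.0962).

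Fold changes in heart ran with length as well. The members under 1500 nt had values between -0.34 and 0.13 (median -0.07), 9 of 28 above 0, and the longer members between -0.48 and 1.26 (median 0.13), 34 of 46 above 0. The Spearman correlation with length was 0.59 over the members, 0.28 over the other abundant transcripts and 0.05 over all transcripts tested. Without treated heart 3 it was 0.47 over the members and 0.24 over the others. Without treated heart 1 the values were 0.57 and 0.22, and without treated heart 2 they were 0.58 and 0.37.

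Whether the response differed between the organs was tested by the interaction of organ and treatment over the 12 libraries. The response in heart was lower than in liver in 5 members, where this held for 1.69% of all transcripts, and higher in 1, where it held for 1.06%. Among the other 80 abundant transcripts the counts were 7 and 1. Of the 5 lower members 2 were under 200 CPM in a group, and so was the 1 higher. Among the lower members, uc008zez.2 and uc007irw.2 had liver-to-heart ratios of 0.476 and 0.535 in controls, outside the limit of 1.5 times. In the set of 68 transcripts chosen on the control libraries alone, 1 was lower (1.47%) and 1 higher (1.47%). Liver and heart came from the same mice, and with the animal as a block no member passed after adjustment (0 lower and 0 higher). Few transcripts passed in this fit at all: 10 of 26434 were lower and 3 higher. At an unadjusted p under 0.05 this fit gave 8 lower, against 5.63% of all transcripts, and 2 higher, against 4.18%. Without 1 mouse, between 0 and 5 members were called lower and 0 or 1 higher: without control mouse 2 no call was left (0), without control mouse 1 or 3 there was 1 lower and 0 higher, and without treated mouse 1 or 2 there were 2 lower. Over all transcripts the fits without 1 mouse gave 125 to 356 lower and 77 to 283 higher, against 448 and 279 with all 6 mice. All values of the interaction test are the log2 fold change in heart minus that in liver.

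The difference was largest in uc033gtg.1, at -2.01 ± 0.28 (SE; edgeR adjusted p = 0.00684; with the animal block adjusted p = 0.0986). In uc008npr.1 it was -1.68 ± 0.31 (edgeR adjusted p = 0.0229; with the block 0.119). The one difference in the other direction was that of uc009rhg.1, at 0.96 ± 0.14 (edgeR adjusted p = 0.00842; with the block 0.0974). In this member the livers fell by 0.90 on the log2 scale, and the hearts had a fold change of 0.07 ± 0.07.

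In uc007irw.2 (2030 nt) the fold changes in liver and heart had opposite signs, and only that in liver passed the threshold. Control livers had 277, 259 and 215 CPM and treated livers 349, 389 and 449, while control hearts had 502, 426 and 476 and treated hearts 370, 351 and 249. All treated livers were above the control livers and all treated hearts below the control hearts. The log2 fold change was 0.96 ± 0.14 in liver (edgeR adjusted p = 0.0158) and -0.48 ± 0.18 in heart (edgeR adjusted p = 0.426), and the difference was -1.45 ± 0.27 (edgeR adjusted p = 0.0231; with the block 0.180). The liver-to-heart ratio went from 0.535 among controls to 1.23 among treated animals. The control ratio was outside the limit of 1.5 times, so this transcript met the rule only with the treated animals included.

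In uc008zez.2 (1816 nt), a member with whole counts, control livers had 263, 239 and 229 CPM and treated livers 569, 554 and 428. The hearts were between 488 and 598 CPM in both groups, so treated livers came near the level of the hearts. The difference was -1.24 ± 0.23 (edgeR adjusted p = 0.0229; with the block 0.0940). In uc008xvn.2 (2329 nt) control livers had 216, 213 and 203 CPM and treated livers 372, 373 and 324, against 204 to 273 in the 6 hearts. There the control livers were in or just under the range of the hearts and the treated livers above it, and the difference was -0.95 ± 0.17 (edgeR adjusted p = 0.0199; with the block 0.183, and with library totals alone 0.0845).

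**Figure D5:**
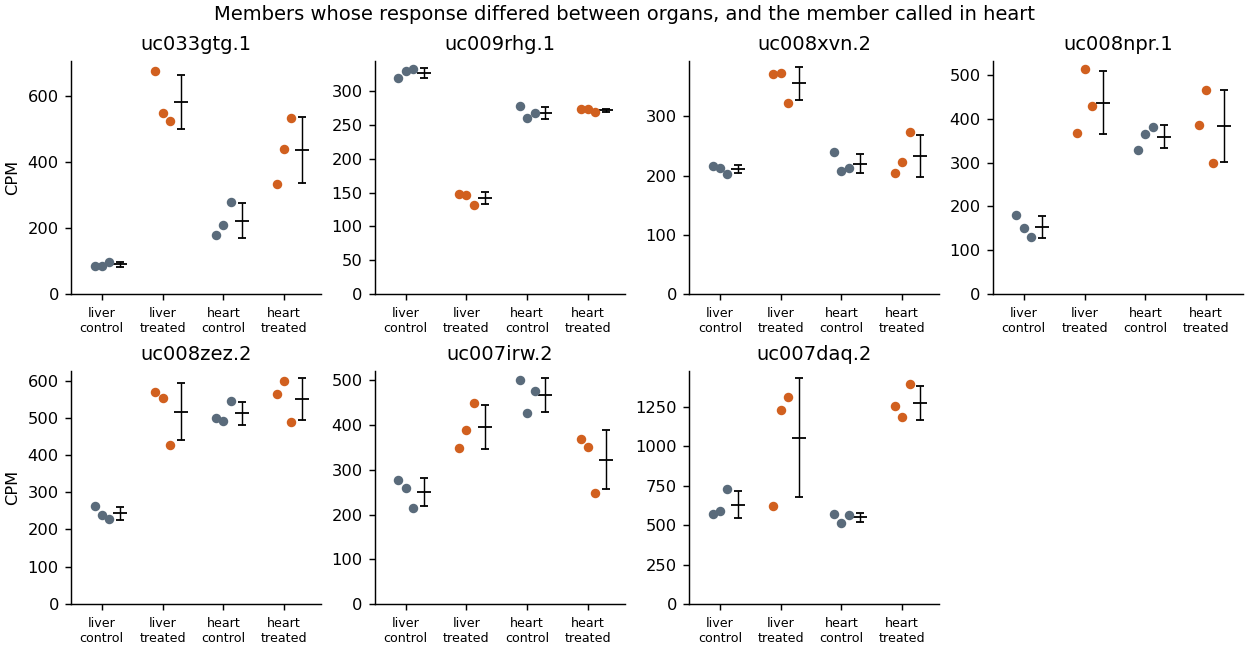
CPM of each library for the 6 members whose response differed between the organs and for uc007daq.2, which was called in heart; grey points are control and orange points treated libraries, and the bar beside them is the mean ± SD of 3. In uc009rhg.1 the treated livers (132 to 148 CPM) lie below all other libraries, and in uc008zez.2 the control livers (229 to 263 CPM) do.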

How the data were processed

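RNA was extracted from liver and heart of 6 mice with RNeasy kits and sequenced after the TruSeq stranded mRNA preparation. The authors deposited, for each of the 12 libraries, estimated counts per transcript with lengths, effective lengths and TPM, and per the submitters' processing notes Salmon 0.8.2, DESeq2 1.20.0 and the build mm10 were used. Neither the strand setting nor the transcript annotation is given in the sources used here. Each file holds 2 tables, and the first was used. The deposited estimated counts need not be whole, since reads that match several transcripts are divided. No column of sample values was left out (0).

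CPM was computed as the estimated count over the sum of all estimated counts of the library, times 1000000. The per-length level was the count over the effective length, scaled in the same way. For tests, counts were rounded and fitted with edgeR 4.0.16 (R 4.3.3; glmQLFit in its legacy form and glmQLFTest), after filterByExpr with a minimum count of 10 and TMM scaling, in each organ apart and over 12 libraries for the interaction. P-values were adjusted by Benjamini-Hochberg over all transcripts tested, and calls were made at an adjusted p under 0.05. DESeq2 1.42.0, limma-voom (limma 3.58.1), other scalings, filters, blocks and left-out animals were tried as alternatives. The scripts were tested on simulated data. Tables were handled with Python 3.11.15, NumPy 2.4.6 and pandas 2.3.3, and plots drawn with Matplotlib 3.10.9.

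Liver and heart with the same label come from 1 mouse, which pairs them. The correlation of their deviations from the group means was -0.0286 to 0.0423. Replicates were separate mice, and no pair of replicates agreed within counting error.

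The members, lists and tests were chosen with earlier results of these data known. Transcripts were named by a rule: the 8 highest per-length levels, the 5 ratios nearest to 1, the members with the largest changes called in each organ, the up to 6 called for the difference between organs, the 3 lowest and 3 highest mean CVs, and the neighbours of each threshold. The UCSC identifiers could not be matched to genes with the tables used. For this reason at most 2 risers and 2 fallers per organ were described for the call in that organ. Changes in liver and heart were also described for the members called for the difference between organs. Gene lists and cell type markers could not be applied, and no sequence is printed. The steadiest members by span, the members over 1000 CPM and the pair with consecutive identifiers were added after their values were seen.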

Additional observations from a re-analysis of the deposited data

Results flagged for a closer look

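The responses of 6 members differed between liver and heart by the interaction test, as log2 fold change in heart minus that in liver. They were -2.01 in uc033gtg.1, -1.68 in uc008npr.1, -1.45 in uc007irw.2, -1.24 in uc008zez.2, -0.95 in uc008xvn.2 and 0.96 in uc009rhg.1. In 5 of them the livers rose after treatment, and in uc009rhg.1 they fell, while in heart none of these 6 passed with edgeR. DESeq2 did call uc033gtg.1 higher in heart (log2 fold change 1.02, DESeq2 adjusted p = 0.000929). Control livers were below 200 CPM in uc033gtg.1 and uc008npr.1, and treated livers in uc009rhg.1. Each of these became a member through the livers of the other condition. The liver-to-heart ratio among controls was 0.476 in uc008zez.2 and 0.535 in uc007irw.2, outside the limit of 1.5 times. Among treated animals it was 0.940 and 1.23, so both met the rule only with the treated animals included. None of the 6 differences passed with the animal as a block (edgeR adjusted p from 0.0940 to 0.183), although their sizes stayed between -1.99 and 0.96. In that fit 10 of 26434 transcripts passed as lower and 3 as higher.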

How the results depend on the processing

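For the number of members, 74 became 209 with a CPM minimum of 100, 18 with 400 and 43 with a tighter limit on the ratio. It stayed between 56 and 91 under the other definitions, but only 9 of the 56 chosen on TMM-scaled CPM and 42 of the 91 chosen on TPM were members. By the TPM ratio alone, without the minimum level, 71 of the 74 members were within 1.5 times (median liver-to-heart ratio 0.843). In liver, 12 members higher and 1 lower became 6 and 1 at an adjusted p of 0.01, 21 and 6 with DESeq2, and 7 and 7 with library totals alone. The lower count was 2 with limma-voom, a minimum count of 50, bias-adjusted deviances or 1 fit of all 12 libraries. Leaving out 1 liver gave 2 to 11 higher and 1 lower. Over all transcripts these fits gave 353 to 721 higher and 79 to 311 lower. In heart, 1 member higher became 6 with DESeq2, 0 at an adjusted p of 0.01 and 0 with 1 fit of all libraries. It was 0 to 1 when 1 heart was left out, and the 0 lower stayed 0. At an adjusted p of 0.01, and without any 1 heart but treated heart 3, no transcript at all passed in heart (0). For the difference between organs, 1 higher and 5 lower became 4 and 6 with DESeq2, 2 and 4 with library totals alone, and 1 lower at an adjusted p of 0.01; without any 1 mouse the counts ran from 0 to 1 for higher and from 0 to 5 for lower. With the replicate block of the replicate number, 1 member was higher and 0 lower in liver (19 and 4 at an unadjusted p under 0.05). In heart 0 were called. Over all transcripts this fit called 62 higher and 6 lower in liver, and 0 in heart. Deviations of same-numbered control and treated animals correlated at -0.0598 to 0.0301. Liver and heart of the same mouse, which are paired, gave -0.0286 to 0.0423. The measure did not show that known pairing, so it cannot decide whether the numbers pair control and treated animals. With the animal block 0 and 0 members differed between organs, where 3 of 26434 transcripts were higher and 10 lower. Without 1 mouse, all transcripts gave 77 to 283 higher and 125 to 356 lower. The cause of these shifts was not tested. Bias-adjusted deviances and library totals alone were chosen after seeing the data. Of 154 alternatives for the transcripts named for a change, 115 kept the call, 39 lost it and 0 reversed. Summing counts per gene was not run, as no table pairs transcripts with genes. The lowest count of a member in a library was 1935; what part depth or the number of animals (3 per group) had in these counts was not tested.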
